A study of Mus musculus with 9 samples.

Results

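The genes described here encode the nuclear subunits of the oxidative phosphorylation machinery, together with the complex I assembly factors of the Ndufaf family. They were taken by gene symbol: names that begin with Nduf, Uqcr, Cox4, Cox5, Cox6, Cox7, Cox8 or Atp5, and the genes Sdha, Sdhb, Sdhc, Sdhd and Cyc1. Of the 27179 gene identifiers in the deposited table, 101 carried such a symbol, 5 of them were pseudogenes and were left out, and 96 remained. A filter on low counts kept 86 of these 96 for testing, beside 12484 genes in the whole table. The other 10 are listed with their counts further on.

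RNA was sequenced from HPC7 cells, a mouse haematopoietic progenitor line grown with stem cell factor. The cells of all 9 libraries had been infected with an MSCV-IRES-GFP retrovirus, which marks infected cells with a green fluorescent protein, and GFP-positive cells were sorted 1 week later. The vector held no added gene (empty vector, 3 libraries), wild-type Snai1 cDNA (3 libraries) or a Snai1 cDNA in which alanine takes the place of phenylalanine at residue 5 (mutant, 3 libraries), a change described by the submitters as impairing the binding of Lsd1. Snai1 belongs to the Snail family of zinc finger repressors, best known from epithelial-to-mesenchymal transition, and Lsd1, encoded by Kdm1a, is a histone demethylase that Snai1 recruits. Expression comes from a viral promoter, so levels are those of forced expression. Nothing in the labels says whether libraries of a group came from separate infections or cultures, and p-values then measure only the spread between these libraries.

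Oxidative phosphorylation takes place in the inner mitochondrial membrane. Complexes I and II pass electrons from NADH and succinate to coenzyme Q, complex III passes them to cytochrome c, complex IV passes them to oxygen, and complex V, the ATP synthase, uses the proton gradient built by complexes I, III and IV to make ATP. All complexes but complex II hold subunits from both the nuclear and the mitochondrial genome, so their assembly needs transcripts from both. Blood stem cells are known to rely on glycolysis more than many of their descendants do.

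Between 18332451 and 20860314 counts were assigned to genes in each library. Snai1 served as the check of the labels: it stood at 0.828 ± 0.205 CPM (TMM-scaled; SD, n = 3) in empty vector, 492 ± 68.5 with wild-type and 460 ± 40.2 with mutant cDNA, while Kdm1a stood at 200 ± 1.21, 201 ± 7.55 and 199 ± 2.00 CPM in the same order. CPM are counts scaled to a common library size, here by the trimmed mean of M-values (TMM). Empty vector replicate 1 stood apart. A gene identifier without a matched symbol held 701384 of its counts (3.62%). In the other 8 libraries the top gene was the mitochondrially encoded COX1, at 0.649% to 1.02% of counts. Empty vector replicate 1 also had 29249 counts of the mitochondrial ribosomal RNA mt-Rnr1 against 2479 to 4344 in the other 8 libraries. Wild-type replicate 1 also differed from the rest of its group more than most replicates did, with a chi-square per degree of freedom of 47.2 and 55.9 against 5.35 between the other two. Results are therefore given without either library where that matters.

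Promoter sequences are shown for 3 of the genes that differed between wild-type Snai1 and empty vector. Cox6b1 and Atp5k rose and have neither a near-identical copy nor an overlapping gene, and Sdhb fell. They are RefSeq sequences of the GRCm38.p6 build, 250 bases before and 25 bases after the start, 5′ to 3′ on the gene's strand. Capitals mark matches, on either strand, to 4 motifs that were searched for: GCGCATGCG (NRF1), CCGGAAG (ETS factors, among them GABP), AAGATGGCG (YY1) and CAGGTG, the E-box form bound by Snail proteins. NRF1, GABP and YY1 are known regulators of respiratory chain genes.
Cox6b1, chr7:30626090-30626364, minus strand: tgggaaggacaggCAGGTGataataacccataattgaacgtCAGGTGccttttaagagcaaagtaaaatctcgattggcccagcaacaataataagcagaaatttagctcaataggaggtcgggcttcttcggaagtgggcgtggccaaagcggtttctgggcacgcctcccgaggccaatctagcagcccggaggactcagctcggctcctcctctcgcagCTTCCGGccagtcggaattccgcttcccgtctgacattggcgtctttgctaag
Atp5k, chr5:108434375-108434649, minus strand: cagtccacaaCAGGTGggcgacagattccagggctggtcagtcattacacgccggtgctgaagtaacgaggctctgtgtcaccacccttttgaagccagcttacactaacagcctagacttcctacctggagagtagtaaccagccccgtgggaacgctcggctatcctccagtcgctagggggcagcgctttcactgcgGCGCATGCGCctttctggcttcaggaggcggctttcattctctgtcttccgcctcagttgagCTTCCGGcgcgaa
Sdhb, chr4:140961021-140961295, plus strand: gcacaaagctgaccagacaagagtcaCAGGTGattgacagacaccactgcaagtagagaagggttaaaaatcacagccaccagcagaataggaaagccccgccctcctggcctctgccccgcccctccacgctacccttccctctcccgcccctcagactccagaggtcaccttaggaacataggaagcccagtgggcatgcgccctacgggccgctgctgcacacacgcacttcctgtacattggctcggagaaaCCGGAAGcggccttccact

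In Atp5k the capital run GCGCATGCGC holds overlapping NRF1 matches on both strands, and it also has an ETS match and an E-box. Cox6b1 holds 1 ETS match and 2 E-boxes, and Sdhb holds 1 of each. Each gene shown thus has an ETS match and an E-box, which most member promoters lack. Ndufa5, Atp5g3 and Ndufb10 rose with smaller adjusted p-values than Atp5k and also lack a near-identical copy or overlapping gene. None of the 4 motifs was found in their promoters. Promoters of 300 bases (250 before and 50 after the start) were found for 77 of the 96 genes, 82 promoters in all. The NRF1 letters were present in 12.2% of these 82, against 3.71% of 12189 promoters of tested genes and 1.75% of all 32851 promoters. The YY1 letters were present in 9.76%, against 3.10% and 1.40%. The ETS letters were present in 23.2%, against 18.0% and 8.86%. The E-box was present in 19.5%, against 17.6% and 20.2%. Among the 28 promoters of members that rose with wild-type Snai1, the shares were 14.3% for NRF1, 17.9% for YY1, 21.4% for ETS and 21.4% for the E-box, and 1 of the 4 promoters of members that fell held an E-box. These are matches of letters only.

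In the empty vector cells, levels per length (CPM per kilobase of the deposited gene length, RPKM) ran from 0 to 588. Complex V led: Atp5b, the catalytic beta subunit, had the top value of all members at 588 RPKM, and Atp5a1, the alpha subunit, stood at 419 RPKM. The leading members of complexes II, III and IV were Sdhc at 138 RPKM (complex II), Uqcrh at 255 RPKM (complex III) and Cox4i1 at 358 RPKM (complex IV). The 8 Ndufaf assembly factors, which are not part of the finished enzyme, lay between 3.61 and 23.2 RPKM, below all 7 core subunits of complex I, which began at 43.0 RPKM.

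Several genes of obligate subunits had very few counts. Sdhd, a membrane anchor of complex II, had 60 counts over all 9 libraries and Uqcr11, a small subunit of complex III, had 3, whereas Sdhb and Uqcrh were among the abundant transcripts. Ndufb4b (8 counts) and Ndufb4c (6 counts), copies of Ndufb4, were also near 0. The remaining untested members are isoforms that are known for restricted tissues or conditions: Cox4i2 (15 counts), Cox6b2 (9), Ndufa4l2 (3), Cox8b (3), Cox7b2 (0) and Cox8c (0). A library with 0 counts allows up to 0.145 to 0.161 CPM, 3 counts of its total, counting error only. An alignment of 95 member transcripts against the mouse transcriptome found a stretch of at least 100 bases with at least 95% identity to another gene for 25 members, Uqcr11 and Ndufb4c among them. The authors' treatment of reads shared between copies is not given in the sources used here, and low levels of genes with such a copy are therefore uncertain. For Sdhd no such copy was found, and Ndufb4b was not aligned.

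**Figure D1:**
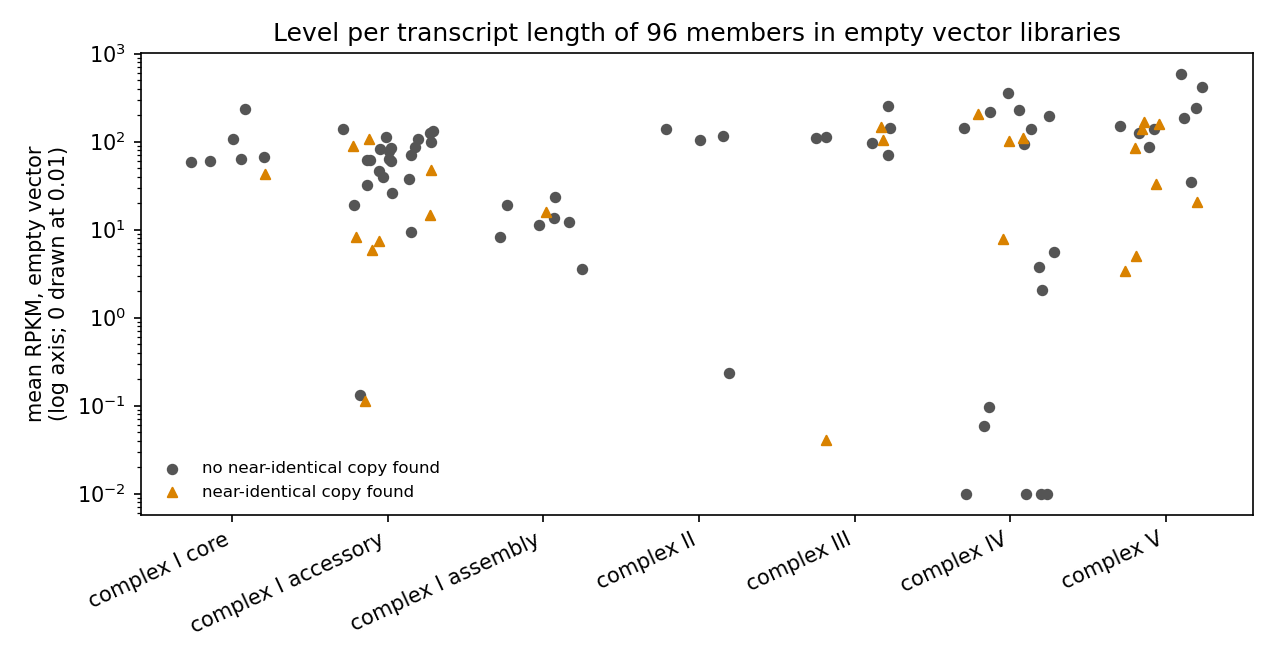
Mean RPKM (log axis) of the 96 members in the 3 empty vector libraries, each point a gene, grouped by complex; genes at 0 are drawn at 0.01. Triangles are genes with a near-identical copy elsewhere; the members of complexes III, IV and V reach 255, 358 and 588 RPKM, and the Ndufaf assembly factors stay at or under 23.2 RPKM.

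Forced expression of wild-type Snai1 was compared with empty vector to see how the transcripts of each complex responded. Of the 86 tested members, 33 rose and 5 fell at an adjusted p under 0.05 (edgeR quasi-likelihood test, Benjamini-Hochberg over 12484 genes). That is 38.4% higher and 5.81% lower, against 25.2% of all tested genes higher and 24.3% lower (49.4% in either direction). Wild-type and empty vector libraries did not overlap for 41 members that were higher and 9 that were lower, against 28.1% and 28.5% of all tested genes (56.6% in either direction). The changes were small: the median log2 fold change was 0.16 over members and -0.0003 over all tested genes, with 69 of 86 members positive. Summed over members, the level was 8794, 8748 and 8166 CPM in empty vector, 10296, 9586 and 9663 CPM with wild-type Snai1, and 9408, 8545 and 9216 CPM with the mutant. The wild-type libraries were above all the others. Upper quartile scaling shifted all genes downward, to 2614 higher, 3607 lower and a median of -0.06 over all tested genes; under it 24 members rose and 9 fell, with a median of 0.10. Without empty vector replicate 3, in which members were lowest, 23 rose and 4 fell. Without empty vector replicate 1 the counts were 29 and 2, and without wild-type replicate 1 they were 36 and 6. Bulk libraries cannot tell fewer cells of a type from less RNA per cell.

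**Figure D2:**
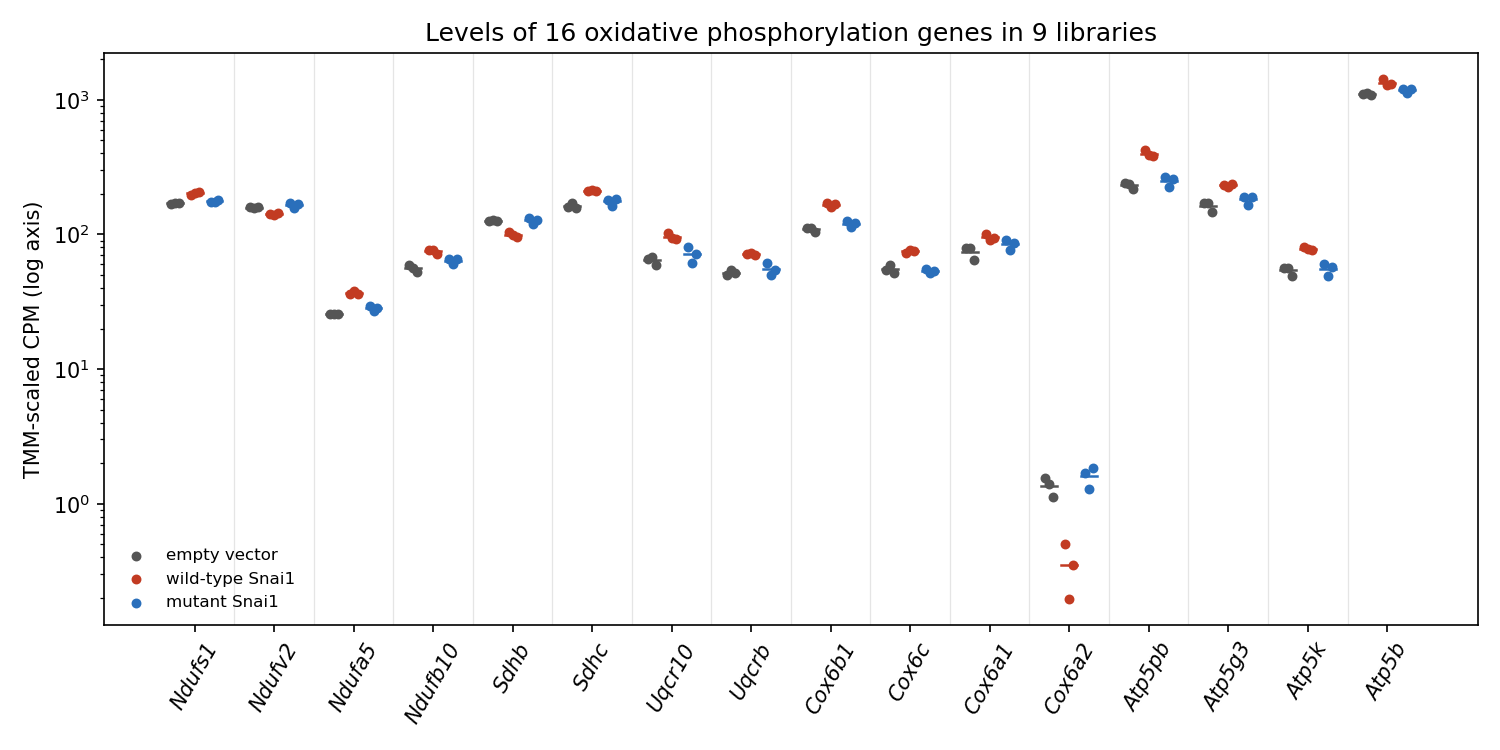
TMM-scaled CPM (log axis) of 16 members in the 9 libraries, each point a library and each line the mean of 3. Wild-type Snai1 points lie above both other groups for Atp5pb, Cox6b1, Uqcr10 and Ndufa5, and below them for Sdhb and Cox6a2.

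Complex I is the entry point for electrons from NADH, and its 7 core subunits of nuclear origin carry the flavin and iron-sulphur clusters. Among these 7, 1 rose and 2 fell. Ndufs1, the large iron-sulphur subunit, was measured at 168, 171 and 172 CPM in empty vector, 197, 203 and 205 CPM with wild-type Snai1 and 175, 173 and 179 CPM with the mutant. The wild-type group did not overlap either of the others, and the log2 fold change over empty vector was 0.25 (SE 0.044, adjusted p = 0.00103). Exons of Ndufs1 overlap those of Eef1b2 on the opposite strand, which moved the other way (log2 fold change -0.45), and the strand setting of the authors' counting is not given in the sources used here.

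Ndufv2 and Ndufv1, flavoprotein subunits near the site where NADH binds, were the core members that fell. Ndufv2 stood at 159, 156 and 160 CPM in empty vector against 143, 139 and 145 CPM with wild-type Snai1 (log2 fold change -0.15, SE 0.050, adjusted p = 0.0289). Ndufv1, which binds FMN and NADH, stood at 104, 106 and 105 CPM against 89.4, 95.4 and 99.3 CPM (log2 fold change -0.15, SE 0.054, adjusted p = 0.0433). Wild-type libraries lay under every empty vector library for both genes. Both calls were marginal: leaving out any 1 empty vector library raised the adjusted p of Ndufv2 to between 0.0622 and 0.0925 and that of Ndufv1 to between 0.0691 and 0.115.

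The accessory subunits surround the core and are needed for its stability. Of 29 tested, 11 rose and none fell, with a median log2 fold change of 0.19. With upper quartile scaling 7 rose and 1 fell, and without empty vector replicate 3, 6 rose and 1 fell. Without wild-type replicate 1, 1 fell as well. Ndufa5 had 25.5, 25.6 and 25.7 CPM in empty vector, 36.2, 38.0 and 36.2 CPM with wild-type Snai1 and 29.4, 27.2 and 28.2 CPM with the mutant. All wild-type libraries exceeded all others, 1.44-fold over empty vector (log2 fold change 0.52, SE 0.064, adjusted p = 9.1e-05). Ndufb10, a membrane arm subunit, rose from 59.0, 56.3 and 52.5 CPM to 76.6, 76.2 and 71.5 CPM (log2 fold change 0.42, SE 0.067, adjusted p = 4.9e-04). Ndufa3 rose from 34.9, 39.8 and 36.4 CPM to 48.8, 47.1 and 45.4 CPM (log2 fold change 0.35, SE 0.070, adjusted p = 0.00212). Ndufa11 rose from 50.7, 48.8 and 52.2 CPM to 76.7, 64.4 and 65.1 CPM (log2 fold change 0.44, SE 0.082, adjusted p = 0.00132); its exons overlap Vmac on the opposite strand, which fell by 0.61 on the log2 scale. The other 7 that rose were Ndufa2, Ndufa8, Ndufa9, Ndufa13, Ndufb4, Ndufc1 and Ndufs6, with log2 fold changes from 0.20 (Ndufa13) to 0.44 (Ndufb4). None of the 8 Ndufaf assembly factors passed the test in this comparison, and their median was -0.01. With upper quartile scaling or total counts 2 of them fell, and with the replicate block 1 fell. Without wild-type replicate 1, 1 rose and 1 fell.

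Complex II, succinate dehydrogenase, also works in the tricarboxylic acid cycle and is encoded entirely in the nucleus. Its subunits moved in opposite directions. Sdhc, a membrane anchor with Sdhd, stood at 159, 171 and 157 CPM in empty vector, 209, 212 and 212 CPM with wild-type Snai1 and 180, 163 and 184 CPM with the mutant. Sdhb, the iron-sulphur subunit, stood at 125, 128 and 126 CPM, then 105, 98.7 and 94.8 CPM, then 133, 120 and 129 CPM. For both genes the wild-type libraries lay outside the range of the other 6. Sdhc rose 1.30-fold (log2 fold change 0.38, SE 0.059, adjusted p = 4.1e-04) and Sdhb fell (log2 fold change -0.34, SE 0.058, adjusted p = 7.4e-04). Sdha, the catalytic flavoprotein, did not pass the test (log2 difference 0.08).

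Complex III, the cytochrome bc1 complex, had 3 of 8 tested members higher and none lower. Uqcr10, a small subunit, rose from 65.6, 68.2 and 59.4 CPM to 103, 93.5 and 92.1 CPM (log2 fold change 0.58, SE 0.098, adjusted p = 7.3e-04). Uqcrb, which lies near the coenzyme Q site, rose from 49.7, 54.7 and 51.8 CPM to 72.0, 73.2 and 70.0 CPM (log2 fold change 0.46, SE 0.076, adjusted p = 6.2e-04). In both genes every wild-type library exceeded every empty vector and mutant library, and both have near-identical copies elsewhere. Cyc1, the cytochrome c1 that hands electrons to cytochrome c, rose from 116, 121 and 112 CPM to 137, 132 and 130 CPM (log2 fold change 0.20, SE 0.063, adjusted p = 0.0246). Its call was lost with upper quartile scaling (adjusted p = 0.112) or total counts (0.0917), and without empty vector replicate 1 (0.0830) or replicate 3 (0.0925). Uqcrh, the hinge protein, had 149, 135 and 132 CPM against 153, 151 and 152 CPM and a log2 difference of 0.13 (SE 0.078, adjusted p = 0.205).

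Complex IV, cytochrome c oxidase, had 6 of 14 tested members higher, 2 lower and a median log2 fold change of 0.26. Cox6b1, which bridges the monomers of the dimer on the intermembrane side, was measured at 112, 111 and 104 CPM in empty vector, 172, 160 and 167 CPM with wild-type Snai1 and 126, 113 and 121 CPM with the mutant. Wild-type libraries lay well above the others, and the gene rose 1.52-fold over empty vector (log2 fold change 0.61, SE 0.059, adjusted p = 1.8e-05). Cox6c rose from 54.1, 59.3 and 52.0 CPM to 73.0, 76.8 and 74.7 CPM (log2 fold change 0.44, SE 0.064, adjusted p = 2.9e-04). Cox7b rose from 104, 104 and 97.6 CPM to 138, 130 and 131 CPM (log2 fold change 0.38, SE 0.066, adjusted p = 8.0e-04). Cox6c and Cox7b have near-identical copies elsewhere. Ndufa4, first described with complex I and now placed in complex IV, rose from 101, 93.6 and 93.7 CPM to 132, 115 and 113 CPM (log2 fold change 0.32, SE 0.081, adjusted p = 0.00751).

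Complex IV is known for subunit isoforms that differ between tissues, and these pairs were examined whatever their values. Cox6a1, the widely expressed form, rose from 79.1, 79.9 and 64.9 CPM to 101, 90.7 and 94.3 CPM (log2 fold change 0.36, SE 0.093, adjusted p = 0.00934). Its heart and muscle counterpart Cox6a2 was scarce, at 1.54, 1.40 and 1.13 CPM in empty vector and 1.68, 1.30 and 1.84 CPM with the mutant, and fell to 0.498, 0.196 and 0.351 CPM with wild-type Snai1. The groups did not overlap, and the decrease (log2 fold change -1.94, SE 0.353, adjusted p = 7.6e-04) was the largest among the tested members. Exons of Cox6a2 overlap those of Itgad on the opposite strand, an integrin gene that fell by 2.61 on the log2 scale (3.36 CPM in empty vector, 0.548 with wild-type Snai1), so reads of the pair may not be separable.

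In the Cox7a family the fitted differences went in both directions, and calls depended on single libraries. Cox7a2, the liver form, had 5.00, 3.71 and 3.92 CPM in empty vector and 6.72, 6.51 and 5.62 CPM with wild-type Snai1 (log2 fold change 0.58, SE 0.180, adjusted p = 0.0212). Without empty vector replicate 2, empty vector replicate 3 or wild-type replicate 2 its adjusted p was 0.0855, 0.0672 or 0.0543. Cox7a1, the heart and muscle form, had 1.28, 1.59 and 1.29 CPM against 0.299, 1.17 and 0.652 CPM and missed the threshold (log2 difference -0.96, SE 0.393, adjusted p = 0.0616), except with upper quartile scaling (0.0494) or without wild-type replicate 2, when the log2 fold change was -1.53 and the adjusted p 0.00821. Cox7a2l, a factor in the assembly of respiratory supercomplexes, had 235, 236 and 234 CPM against 234, 194 and 183 CPM. It was at the threshold (log2 fold change -0.21, SE 0.079, adjusted p = 0.0497), and wild-type replicate 1 lay near the empty vector level. Without that library the log2 fold change was -0.32 and the adjusted p 1.8e-05. Leaving out any 1 other library raised the adjusted p to between 0.0704 and 0.233.

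No call was made for Cox4i1 or Cox8a. Cox4i1, the widely expressed form of the regulatory subunit, had 263, 244 and 223 CPM in empty vector and 322, 241 and 253 CPM with wild-type Snai1, groups that overlapped (log2 difference 0.16, SE 0.115, adjusted p = 0.274), while Cox4i2, its hypoxia-responsive counterpart, had at most 2 counts in any library. Cox8a had 146, 142 and 85.0 CPM against 139, 155 and 159 CPM. Here empty vector replicate 3 was low and set most of the difference of 0.28 (SE 0.175, adjusted p = 0.214). Cox6b2, Cox8b, Cox8c and Ndufa4l2, the counterparts of Cox6b1, Cox8a and Ndufa4, were at or under 3 counts in every library.

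Complex V had the largest share of members that rose among the 7 roles: 11 of 17 rose and none fell, with a median log2 fold change of 0.23. With upper quartile scaling 7 rose, and without empty vector replicate 3, 1 fell. Atp5pb, the b subunit of the peripheral stalk (chr3:105942698-105959263, GRCm38.p6), had 240, 236 and 218 CPM in empty vector, 426, 387 and 379 CPM with wild-type Snai1 and 265, 226 and 257 CPM with the mutant. It rose 1.72-fold, the largest increase among members (log2 fold change 0.78, SE 0.074, adjusted p = 1.5e-05). Its neighbour on the opposite strand with overlapping exons, Wdr77, rose as well (log2 fold change 0.51, adjusted p = 8.6e-05), and Atp5pb has near-identical copies elsewhere.

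Other parts of the synthase rose too. Atp5g3, 1 of 3 genes for the c subunit of the rotor ring, rose from 171, 171 and 146 CPM to 232, 224 and 239 CPM (log2 fold change 0.51, SE 0.077, adjusted p = 3.6e-04). Another gene for the same protein, Atp5g2, was scarce at 2.29, 2.17 and 2.15 CPM against 2.04, 2.25 and 2.16 CPM (log2 difference -0.03, SE 0.188, adjusted p = 0.900). Atp5g2 has near-identical copies elsewhere, and its low level is therefore uncertain. Atp5k, the e subunit, which takes part in dimer formation, rose from 56.6, 56.0 and 49.4 CPM to 80.6, 77.6 and 76.1 CPM (log2 fold change 0.53, SE 0.085, adjusted p = 5.1e-04). Atp5j2, the f subunit, rose from 42.6, 39.3 and 41.0 CPM to 53.4, 52.6 and 52.4 CPM (log2 fold change 0.37, SE 0.073, adjusted p = 0.00208). The catalytic beta subunit Atp5b rose from 1110, 1124 and 1078 CPM to 1425, 1284 and 1315 CPM (log2 fold change 0.28, SE 0.058, adjusted p = 0.00236). In all of these but Atp5g2, the wild-type libraries lay above every empty vector library. Atp5a1, Atp5c1, Atp5h, Atp5j, Atp5md and Atp5mpl completed the 11, with log2 fold changes from 0.16 (Atp5a1) to 0.39 (Atp5md).

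**Figure D3:**
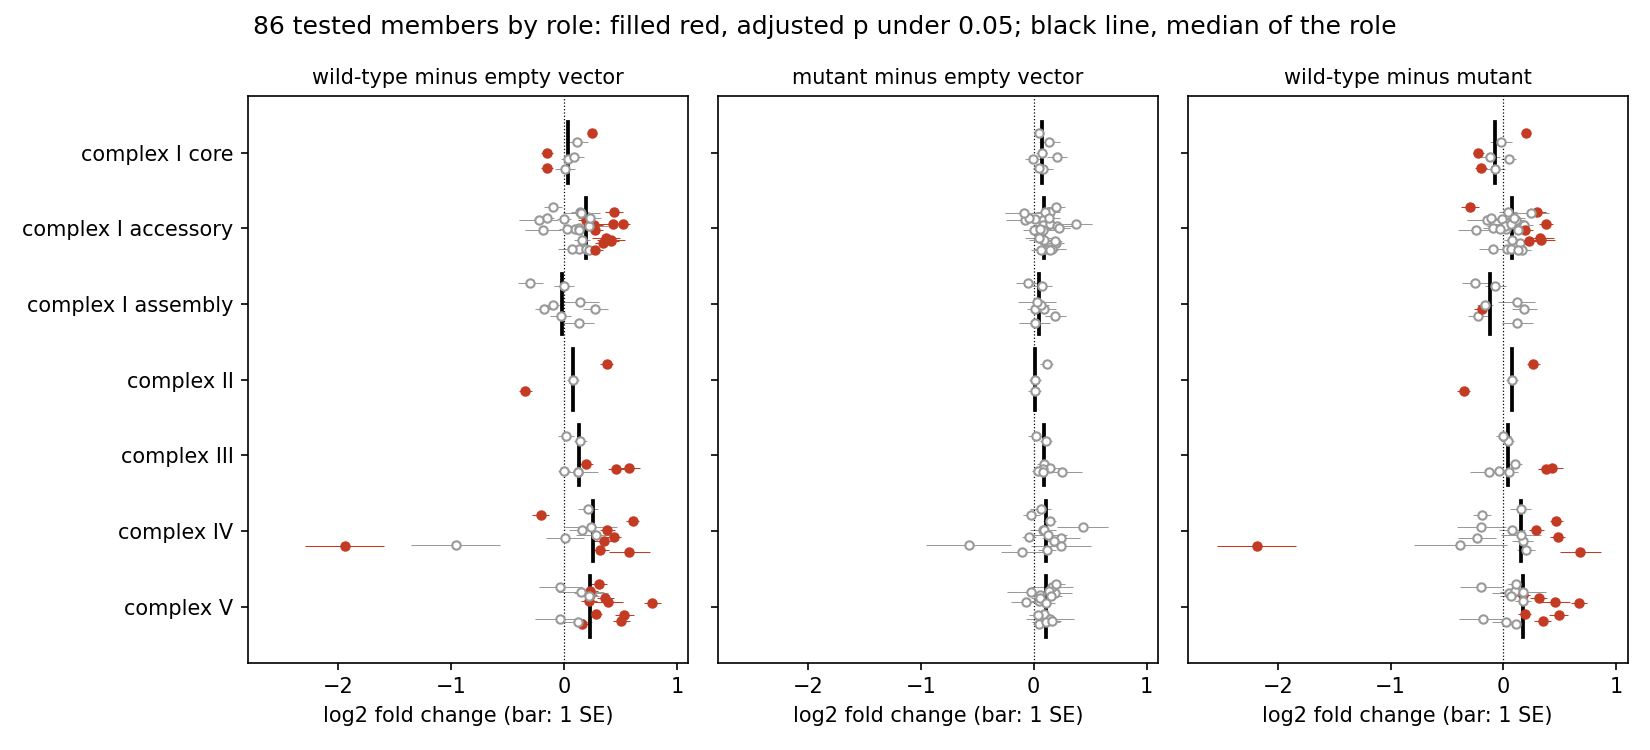
Log2 fold changes of the 86 tested members by role in the 3 comparisons, with bars of 1 SE; filled points passed an adjusted p under 0.05 and black lines are role medians. Filled points lie mostly right of 0 for wild-type against empty vector (33 against 5) and for wild-type against mutant (21 against 6), and there are none for mutant against empty vector.

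Members differ in the deposited gene length, and their changes are given here by length class. Of the 57 tested members under 1000 bases, 22 rose and 1 fell, with a median log2 fold change of 0.22, whereas 17.8% of all tested genes of that length rose, 18.1% fell and the median was -0.02. Of the 29 members of 1000 bases or more, 11 rose and 4 fell, with a median of 0.08, against 26% higher, 25% lower and a median of 0.001 over all tested genes of that length. The share of members that rose was similar in both length classes, 38.6% and 37.9%. Across the 86 members the Spearman correlation of length with the log2 fold change was -0.358, against 0.037 across 12484 genes, a description over genes that share libraries. Among the 42 members with neither a near-identical copy nor an overlapping exon, 15 rose and 3 fell.

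The rest of the pathway was read from lists of other genes. The 13 protein genes of mitochondrial DNA had none higher and 2 lower (15.4%), with a median log2 fold change of -0.10. Of all tested genes, 25.2% were higher and 24.3% lower. None fell without empty vector replicate 3 or wild-type replicate 3, 1 fell without empty vector replicate 1, wild-type replicate 2 or mutant replicate 1, and 1 rose without wild-type replicate 3 or with the replicate block. Their difference from the nuclear subunits was not tested. COX1, the catalytic subunit of complex IV, had 8739, 7370 and 8318 CPM in empty vector, 8694, 7434 and 6717 CPM with wild-type Snai1 and 10016, 7561 and 8903 CPM with the mutant, groups that overlapped. The members that fell were the thinly counted ATP8, from 3.13 ± 1.18 to 1.47 ± 0.546 CPM (SD, n = 3; adjusted p = 0.0193), and COX3, from 43.9 ± 8.26 to 28.7 ± 7.84 CPM (SD, n = 3; adjusted p = 0.0347). Both lie in the stretch from COX2 to ND4L, whose genes had 7.89 to 82.4 RPKM in empty vector. On either side of it, COX1 had 5270 RPKM and ND4 had 1085 RPKM. Near-identical copies were not sought for mitochondrially encoded genes, so the levels and falls in this stretch are uncertain. Libraries were made with a kit that selects polyadenylated RNA, and mitochondrial transcripts are known to have short poly(A) tails.

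Genes that copy, transcribe and maintain mitochondrial DNA mostly fell: 8 of 15 were lower and 1 higher, with a median log2 fold change of -0.32. That is 53.3% lower and 6.67% higher, against 24.3% and 25.2% of all tested genes. Ssbp1, the mitochondrial single-strand DNA binding protein, stood at 36.5 ± 0.978 CPM in empty vector and 23.5 ± 0.689 CPM with wild-type Snai1 (SD, n = 3; log2 fold change -0.64, adjusted p = 1.9e-05). Mterf2 went from 17.5 ± 0.857 to 9.61 ± 0.601 CPM (adjusted p = 6.2e-05) and the exonuclease Mgme1 from 27.2 ± 2.16 to 16.5 ± 0.774 CPM (adjusted p = 7.1e-05; SD, n = 3). The exception was Polg, the catalytic subunit of the mitochondrial DNA polymerase, which rose from 138 ± 5.66 to 256 ± 40.5 CPM (log2 fold change 0.89, adjusted p = 4.7e-05; SD, n = 3).

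Assembly factors outside the symbol rule had 4 of 43 higher and 8 lower (9.3% and 18.6%), with a median of -0.10. Both shares were under those of all tested genes (25.2% and 24.3%). Without empty vector replicate 3, 5 were lower, without wild-type replicate 1, 15 were lower, and without empty vector replicate 1, 2 were higher. Sdhaf4 and Nubpl, which serve complex II and complex I, fell by 0.69 and 0.88 on the log2 scale (adjusted p = 1.4e-04 and 5.8e-04), and Cox20 fell by 0.32 (adjusted p = 0.00448), while Cox16, Cox17 and Cmc2, factors of complex IV, rose by 0.40, 0.45 and 0.41. In the list of electron carriers and coenzyme Q synthesis, 3 of 18 rose, among them Coq3 and Coq7, and 3 fell, Coq8a, Etfdh and Coq2 (16.7% each way). The upstream pathway of pyruvate entry and the tricarboxylic acid cycle had 7 of 20 higher and 2 lower (35% and 10%). Idh3a rose by 0.54, Dlst by 0.45 and Ogdh by 0.39, the last pair being parts of the 2-oxoglutarate dehydrogenase complex, whereas Pdha1, the E1 subunit of pyruvate dehydrogenase, fell by 0.49 (adjusted p = 2.2e-05) and Idh2 fell by 0.21. Of 77 mitochondrial ribosomal protein genes, 14 rose and 10 fell (18.2% and 13%, both under the shares of all tested genes), with a median of 0.04. On leaving out 1 library, 8 to 16 rose (8 without empty vector replicate 2 or 3, 9 without empty vector replicate 1 or wild-type replicate 2) and 5 to 14 fell (5 without empty vector replicate 2, 6 without empty vector replicate 1 or wild-type replicate 2 or 3). Mrps21, Mrpl18 and Mrpl14 led the 14, with log2 fold changes of 0.51, 0.36 and 0.42, and Mrpl9, Mrps31 and Mrps35 led the 10, with -0.61, -1.18 and -0.47.

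Of 16 tested regulators of respiratory genes, 4 rose and 3 fell (25% and 18.8%), close to or under the shares of all tested genes (25.2% and 24.3%). Without empty vector replicate 3, or with upper quartile scaling, 2 rose. Hif1a, the oxygen-sensitive transcription factor, rose by 0.72 on the log2 scale (245 ± 9.20 to 403 ± 23.2 CPM, SD, n = 3; adjusted p = 5.1e-06), and its target Higd1a and the pyruvate dehydrogenase kinase Pdk3 rose by 0.45 and 0.26. Myc fell by 0.77 (333 ± 18.3 to 195 ± 16.2 CPM, SD, n = 3; adjusted p = 1.0e-05), and Pdk2 and Gabpb1, a subunit of GABP, fell by 0.99 and 0.27. Nrf1, Gabpa and Yy1, factors whose motifs were counted above, did not pass the test: Nrf1 had 48.4 ± 2.19 and 48.6 ± 2.93 CPM (SD, n = 3), Gabpa had 118 ± 4.37 and 124 ± 4.60 CPM (SD, n = 3), and Yy1 had 138 ± 9.07 and 127 ± 3.45 CPM (SD, n = 3) in empty vector and wild-type Snai1.

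**Figure D4:**
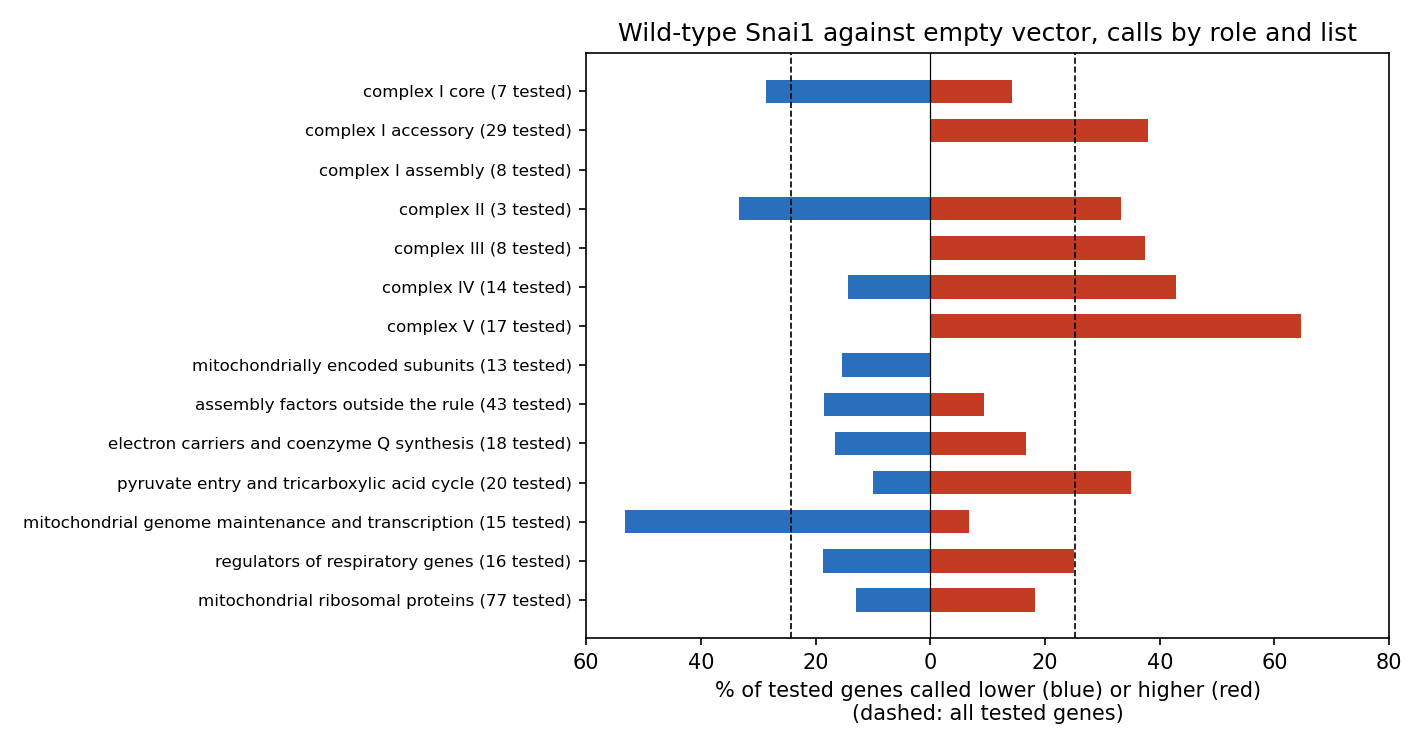
Share of tested genes called higher (right) and lower (left) with wild-type Snai1 against empty vector, in percent, for the 7 roles of the members and 7 lists of other mitochondrial genes; dashed lines are the shares over all tested genes, 25.2% higher and 24.3% lower. Complex V reaches furthest to the right (11 of 17), and mitochondrial genome maintenance furthest to the left (8 of 15).

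Markers of blood cell types moved in the same libraries. All 8 progenitor markers were detected, Kit at 3614 CPM in empty vector and 3389 CPM with wild-type Snai1; Lmo2 and Cd34 rose, and Myb, Tal1 and Lyl1 fell. Without wild-type replicate 1, 4 progenitor markers were called higher. Of 10 monocyte and macrophage markers, 8 rose, led by Cd14, Lyz2 and Mpeg1, and Fcgr1 and Itgam fell. Only 1 of the 10 was called lower without empty vector replicate 1, wild-type replicate 1 or wild-type replicate 2. The summed level of the 10 was 138 to 163 CPM in empty vector, 825 to 1460 CPM with wild-type Snai1 and 138 to 164 CPM with the mutant. Of 6 tested neutrophil markers (11 in the list), 4 rose, among them Lcn2, Cybb and Mmp9, and Mpo fell, with summed levels of 4737 to 5332, 1023 to 3243 and 5403 to 5736 CPM; S100a8 and Ngp were at or near 0 in all groups. Of 6 tested erythroid markers, 5 fell, among them Gata1, Klf1 and Tfrc (summed 756 to 773, 463 to 681 and 759 to 859 CPM). Of these markers, 2 were called without empty vector replicate 2 or 3, and 3 without empty vector replicate 1, wild-type replicate 3 or mutant replicate 2 and with the replicate block. Mpo was not called without empty vector replicate 2 or with no filter on low counts. Fibroblast and stromal markers were not detected above 0.1 CPM summed. The part of these cell type markers in the changes of the respiratory genes was not tested.

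Mutant Snai1 was set against empty vector to ask whether the response needs the residue at position 5. Snai1 itself was the only gene of 12484 called (0.00801%). DESeq2 called 6 genes higher and 4 lower, a fit of only these groups called 13 and 17, and the fit without wild-type replicate 1 called 28 and 34. No member passed in either direction in any of these; 8 members had an unadjusted p under 0.05 (edgeR), beside 603 of all tested genes, and the smallest adjusted p over members was 0.980. Fitted log2 differences were nevertheless mostly above 0: 75 of 86 members, with a median of 0.09, against 48.1% of all tested genes and a median of -0.005. Library by library, the median difference of members from the empty vector mean was 0.15, -0.002 and 0.11 in the mutant and 0.05, 0.03 and -0.06 in empty vector, so that mutant replicate 2 lay inside the empty vector range. In the wild-type group it was 0.23, 0.16 and 0.15. Mutant and empty vector did not overlap for 13 members that were higher and 2 that were lower (15.1% higher, against 8.53% of all tested genes higher, 9.04% lower and 17.6% in either direction). The members with an unadjusted p under 0.05 were Ndufa3, Ndufa7, Ndufb4, Ndufb7, Ndufb10, Ndufs7, Cox6b1 and Atp5mpl, with log2 differences from 0.14 (Cox6b1) to 0.37 (Ndufb4). Over all genes, too, these differences went with the deposited gene length: the Spearman correlation was -0.226 over 12484 genes and -0.301 over the 86 members, and all tested genes under 1000 bases had a median of 0.05. The part of length was not tested.

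The last comparison set wild-type against mutant Snai1, groups whose Snai1 transcript levels were not called different (log2 difference 0.10, SE 0.106, adjusted p = 0.480 for Snai1). It shares the wild-type libraries with the first comparison and is given beside it. Here 21 members were higher with the wild-type protein and 6 lower, or 24.4% and 6.98%, against 24.5% and 23.4% of all tested genes (47.9% in either direction). The libraries did not overlap for 25 that were higher and 11 that were lower, against 27.5% and 28.3% of all tested genes (55.8% in either direction). The share that rose was thus close to that of all genes, and the share that fell was under it. The median was 0.08 (all tested genes -0.006). Other scalings shifted all genes downward, to a median of -0.07 over all tested genes both with upper quartile scaling (2526 higher, 3540 lower) and with total counts alone (2456 higher, 3434 lower). Under them 15 members rose and 10 fell, and 14 rose and 10 fell, each with a median of 0.01. Without mutant replicate 2, in which members were lowest of the mutant group, 13 rose and 5 fell.

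By complex, 7 of 17 members of complex V (41.2%) were higher with wild-type than with mutant Snai1, against 24.5% of all tested genes. So were 6 of 29 accessory subunits of complex I (20.7%), 4 of 14 in complex IV (28.6%) and 2 of 8 in complex III (25%), shares closer to that of all genes. Sdhc and Ndufs1 were the other members that were higher. The 6 with the smallest adjusted p were Atp5pb (log2 fold change 0.67, SE 0.074, adjusted p = 4.6e-05), Cox6b1 (0.47, SE 0.059, adjusted p = 1.1e-04), Cox6c (0.48, SE 0.064, adjusted p = 1.7e-04), Ndufa5 (0.38, SE 0.064, adjusted p = 7.4e-04), Atp5k (0.49, SE 0.085, adjusted p = 8.6e-04) and Uqcrb (0.38, SE 0.076, adjusted p = 0.00221). For each of them the 3 wild-type libraries lay above the 3 mutant libraries. Members lower with the wild-type protein were Cox6a2 (log2 fold change -2.19, SE 0.348, adjusted p = 3.3e-04), Sdhb (-0.35, SE 0.058, adjusted p = 6.4e-04), Ndufv2 (-0.22, SE 0.050, adjusted p = 0.00421), Ndufv1 (-0.20, SE 0.054, adjusted p = 0.0123), Ndufa7 (-0.30, SE 0.080, adjusted p = 0.0104) and the assembly factor Ndufaf4 (-0.19, SE 0.071, adjusted p = 0.0493).

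Ndufa7 and Ndufaf4 were not called against empty vector. Ndufa7, an accessory subunit, had 72.5, 67.5 and 62.8 CPM in empty vector, 66.5, 61.8 and 61.3 CPM with wild-type Snai1 and 83.5, 70.5 and 79.2 CPM with the mutant; its adjusted p was 0.0505 without mutant replicate 1. Ndufaf4 had 51.2, 47.6 and 48.6 CPM in empty vector, 47.1, 41.5 and 41.3 CPM with wild-type and 51.2, 47.2 and 49.8 CPM with mutant Snai1, and its call was lost without any 1 library other than wild-type replicate 1 (adjusted p from 0.0515 to 0.176). The isoforms Cox6a1 (log2 difference 0.17, SE 0.093, adjusted p = 0.151), Cox7a1 (-0.38, SE 0.411, adjusted p = 0.468) and Cox4i1 (0.08, SE 0.115, adjusted p = 0.617) did not pass here, and Cox7a2 was higher with wild-type Snai1 (0.68, SE 0.180, adjusted p = 0.0101). Cox7a2l did not pass either (-0.19, SE 0.079, adjusted p = 0.0736). It was called lower without wild-type replicate 1 (-0.30, adjusted p = 3.6e-05), with upper quartile scaling (adjusted p = 0.0248) and with total counts (0.0290). In this comparison no mitochondrially encoded subunit rose or fell at the threshold (1 of 13 had an unadjusted p under 0.05). ATP8 and COX3, the 2 called lower against empty vector, had differences of the same sign here. Their log2 differences were -0.83 (adjusted p = 0.0624) and -0.43 (adjusted p = 0.119). Of 15 genes of mitochondrial DNA maintenance, 8 were lower and 1 higher, the same counts as against empty vector.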

How the data were processed

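RNA-seq read counts per Entrez gene were deposited by the authors for 9 libraries in 3 groups of 3. Reads were counted with featureCounts, per the submitters' processing notes, which also name the mm10 build, edgeR 3.15.0 and limma 3.29.12; aligner, gene models and strand setting are not given in the sources used here. Libraries were made with the Illumina TruSeq stranded mRNA kit, per the labels. The deposited counts were whole numbers, 18332451 to 20860314 per library, and no columns belonged to other samples.

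Symbols and gene coordinates came from RefSeq (GRCm38.p6; 25275 of 27179 identifiers matched). edgeR 4.0.16 (R 4.3.3) was run with filterByExpr, TMM scaling and a robust quasi-likelihood fit of the 3 group means to all 9 libraries, with no block, and adjusted p-values over 12484 genes. SE is the fit's Wald standard error, and RPKM is CPM over the deposited gene length. The fit was tested on simulated counts. Copies were sought with blastn 2.17.0 and exon overlaps with GENCODE M21. Alternatives were RLE, upper quartile and total-count scaling, no filter, DESeq2 1.42.0, only the groups compared, the replicate number as a block, and leaving out each library.

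Members, gene lists and motifs were chosen with earlier results of these data known. Named in the text are, for wild-type against empty vector, up to 4 called members with the smallest adjusted p per role and direction, 6 per direction for the other comparisons, the textbook isoform pairs, the highest and lowest member per length in each complex, and up to 3 called genes per list and direction. Other called members, those with an unadjusted p under 0.05, Sdha and the factors of the motifs were named after their values were seen. A member that this rule would name is not reported here.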

Additional observations from a re-analysis of the deposited data

How the results depend on the processing

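For wild-type against empty vector, the members that fell (5) numbered 3 with RLE scaling, 9 with upper quartile scaling, 3 in a fit of only the groups compared, and 2 to 6 on leaving out 1 library; those that rose (33) numbered 23 to 36 on leaving out 1 library, and 24 to 34 under the other settings. The median log2 fold change (0.16) was 0.1013 with upper quartile scaling, which moved the median of all tested genes to -0.0616. For wild-type against mutant, members that fell (6) numbered 10 with upper quartile scaling and 10 with total counts, with medians of 0.0117 and 0.0122 in place of 0.0757, settings that moved the median of all tested genes to -0.0695 and -0.0694, and 4 to 8 on leaving out 1 library; those that rose (21) numbered 13 to 22. No member was called for mutant against empty vector under any setting run. Among the genes named in the text, those that changed sign, none of them called, were Atp5g2 (wild-type against empty vector: -0.0661 to 0.0039 on leaving out 1), Cox7a2l (mutant against empty vector: 1e-04 with total counts), Cox7a2 (-0.1931 to 0.047) and Cox8a (-0.0853 to 0.2554; both mutant against empty vector, leaving out 1), and Cox4i1 (wild-type against mutant: -0.0632 to 0.1549, leaving out 1). The cause was not tested. Where 1 library was left out of a group, its pair was assumed to vary like the other groups. The replicate numbers were not shown to pair libraries (correlations of same-numbered deviations -0.0873 to 0.21, over 0.1 in 2 of 9 pairs; 4 of 9 libraries correlated best with their own number). With the replicate block, 33 members rose and 5 fell for wild-type against empty vector (median 0.163), and 19 and 6 against the mutant; the call of Ndufv1 was lost (adjusted p = 0.0686) and Ndufa4 gained one against the mutant (adjusted p = 0.0160). Depth limits what can be said of the 10 untested members.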
